A study of Mus musculus with 7 samples.

Results

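The genes described here are 10 inhibitors and IκB-type regulators of NF-κB, most of which the pathway itself can switch on: Nfkbia, Nfkbib, Nfkbie, Nfkbid, Nfkbiz, Bcl3, Tnfaip3, Tnip1, Tnip3 and Cyld. They were taken by gene symbol from both deposited expression tables, so 10 of 48440 genes in the LPS table and 10 of 55352 genes in the AAV table were members. All 10 passed the filter on low values in each table, which kept 17854 and 11218 genes. Both experiments used mouse bone-marrow-derived macrophages (BMDMs), which are grown from bone marrow cells in M-CSF. In the first experiment, wild-type BMDMs were left untreated (0 h) or given lipopolysaccharide (LPS), the bacterial ligand of the receptor TLR4, at 100 ng per mL, and 1 library was made after 2 h and 1 after 4 h. In the second, 2 samples were taken 48 h after transduction with AAV-GFP and 2 after AAV-Shisa3, with no LPS in their treatment labels. The AAV-GFP cells are labelled wild type and the AAV-Shisa3 cells are labelled as overexpressing Shisa3. Both viruses drive their insert from the ubiquitous CAG promoter. The comparison is between 2 populations given virus and holds no group left without it, and some cells in each sample may be untransduced. SHISA3 is a transmembrane protein, and the study asked how it relates to NF-κB signalling in macrophages.

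NF-κB dimers rest in the cytoplasm bound to the classical IκB proteins IκBα (Nfkbia), IκBβ (Nfkbib) and IκBε (Nfkbie). TLR4 signalling builds ubiquitin chains that activate the IKK kinase, which marks IκBs for destruction, and the freed dimers enter the nucleus and transcribe new inhibitors that close the loop. The atypical IκBs, IκBNS (Nfkbid), IκBζ (Nfkbiz) and BCL3, act in the nucleus and can hold back or raise the transcription of selected targets. A20 (Tnfaip3) edits ubiquitin chains, ABIN-1 (Tnip1) and ABIN-3 (Tnip3) bind A20 or ubiquitin, and CYLD removes ubiquitin chains.

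The sequences before the start sites of these genes are given first, since NF-κB binding at such sites is the best known route of their induction. RefSeq promoters (GRCm38.p6) were found for 9 of the 10 genes, Nfkbiz being the other. The 250 bases before each start were searched on both strands for the κB consensus and for the pattern GGGNNNTTCC, which overlaps the consensus. The κB consensus was found before at least 1 start of 7 of the 9 genes (Nfkbia, Nfkbie, Nfkbid, Tnfaip3, Tnip1, Tnip3 and Cyld), against 8.23% of 27025 genes. By promoter it was found in 7 of the 12 promoters of these genes and in 7.25% of 32851 promoters. GGGNNNTTCC was found for 6 of the 9 genes, all but Tnip3 of those just named, against 5.31% of genes and 4.65% of promoters. Nfkbib and Bcl3 held neither pattern in these windows. The Nfkbib window lies inside the gene by the GENCODE M21 gene models, where Nfkbib begins at chr7:28767512 (- strand). The bases before that position were not searched. A match is a description of letters and not evidence of binding, which was not measured here.

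The windows show the matches of Tnfaip3, Tnip3 and Nfkbia, which had the strongest LPS induction of the matched genes, and of Nfkbie, Tnip1 and Cyld, so that the gene that did not rise can be set beside those that did. Each is written 5′ to 3′ on the strand of the gene, and capitals mark the bases that match either pattern.
Nfkbia, chr12:55492648-55492701 (- strand): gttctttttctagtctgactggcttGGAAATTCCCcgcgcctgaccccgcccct
Tnfaip3, chr10:19015411-19015447 (- strand): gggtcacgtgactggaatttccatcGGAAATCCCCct
Tnip3, chr6:65590319-65590378 (+ strand): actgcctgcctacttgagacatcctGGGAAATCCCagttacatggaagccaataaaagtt
Tnip1, chr11:54962962-54963023 (- strand): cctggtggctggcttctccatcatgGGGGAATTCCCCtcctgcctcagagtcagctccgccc
Nfkbie, chr17:45555569-45555628 (+ strand): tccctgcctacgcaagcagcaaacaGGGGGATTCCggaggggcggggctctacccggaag
Cyld, chr8:88696848-88696907 (+ strand): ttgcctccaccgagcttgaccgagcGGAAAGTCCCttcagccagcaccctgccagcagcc
The matches lay close to the start in Tnfaip3 (from -12) and Nfkbia (from -29), farther out in Tnip3 (from -54) and Tnip1 (from -58), and farthest in Nfkbie (from -106) and Cyld (from -155). Tnfaip3 held another consensus match from -125 and, before its other RefSeq start, a match to GGGNNNTTCC only, from -90. These distances depend on the start used. In the GENCODE M21 gene models Tnfaip3 begins at chr10:19015657 (- strand) and Tnip3 at chr6:65525313 (+ strand), both farther upstream. By those models the matches of these genes lie inside the annotated gene. In Nfkbid the matches, from -226 and -181, stood before 1 of its 3 annotated starts only.

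**Figure D1:**
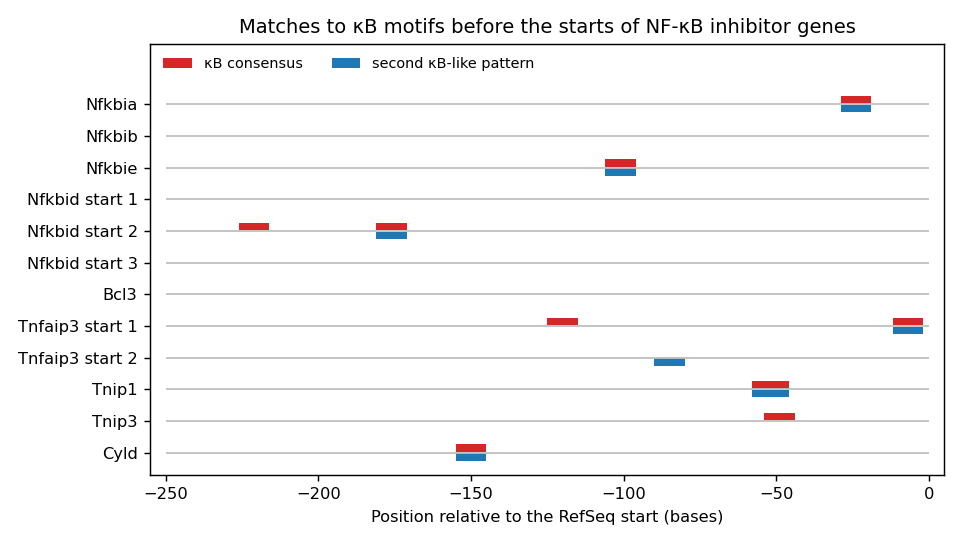
Matches to the κB consensus (red) and to the second κB-like pattern (blue) in the 250 bases before each RefSeq start, with the position relative to the start in bases on the horizontal axis and 1 line per start. The matches of Tnfaip3 (from -12) and Nfkbia (from -29) are the closest to a start, and the lines of Nfkbib and Bcl3 are empty.

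With LPS, 9 of the 10 genes had risen by 2-fold or more at 2 h and 8 of them at 4 h, and Cyld was the one that stayed within 2-fold at both times. Among all 17854 genes, 20.5% were at least 2-fold higher and 24.7% at least 2-fold lower at 2 h, and 22.2% and 23.6% at 4 h. The median log2 fold of the 10 genes was 4.16 at 2 h and 3.47 at 4 h, against -0.05 and -0.04 over all genes. With reads scaled to equal library totals the medians were 3.50 and 2.65, and those of all genes moved to -0.68 and -0.81, so that each fold below would be lower by about that shift. Each time point is a lone library, so these differences could not be set against replicate error and carry no p-value. The folds below are ratios of the authors' normalised values with exact 95% intervals, which cover counting error only.

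Among the classical IκBs, Nfkbia rose from a normalised value of 1050 at 0 h to 37345 at 2 h and was 25877 at 4 h. These are 35.6-fold (33.8 to 37.4) at 2 h and 24.6-fold (23.4 to 25.9) at 4 h. Nfkbie, whose product holds mainly RELA and c-REL dimers, went from 223 to 4988 and then 2420. It was 22.4-fold (20.0 to 25.2) higher at 2 h and 10.9-fold (9.75 to 12.2) at 4 h, and of the classical IκBs it lost the largest share of its level between these times. Nfkbib had values of 206, 2129 and 1669. Its rise of 10.3-fold (9.08 to 11.7) at 2 h and 8.08-fold (7.20 to 9.09) at 4 h was the smallest of the classical IκBs. Of the exonic bases of Nfkbib, 16.4% overlap Sirt2 or Ccer2 on the other strand, and reads from these cannot be told apart where strand was not used.

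The atypical IκBs were spread over a wide range. Nfkbiz went from 584 at 0 h to 22282 at 2 h and 11707 at 4 h, which is 38.1-fold (35.6 to 40.9) and 20.0-fold (18.8 to 21.4). This rise at 2 h is near that of Nfkbia, and the intervals of the 2 genes overlap. Bcl3 had values of 333, 3568 and 2263, or 10.7-fold (9.71 to 11.9) and 6.81-fold (6.21 to 7.47), with 6.51% of its exonic bases under Gm16175 on the other strand. Nfkbid moved least of the genes that rose, with values of 283, 876 and 323. It was 3.09-fold (2.70 to 3.55) higher at 2 h and 1.14-fold (1.01 to 1.29) higher at 4 h. With equal library totals Nfkbid was 1.96-fold (1.70 to 2.24) higher at 2 h, under the limit of 2-fold, and 0.644-fold (0.569 to 0.731) at 4 h, so the direction of its 4 h value depends on the scaling.

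The genes of the A20 complex held the largest rises. Tnfaip3 went from 393 at 0 h to 50159 at 2 h and 34388 at 4 h. That is 128-fold (118 to 139) and 87.5-fold (80.8 to 94.9), and Tnfaip3 ranked 40 of 17854 genes by log2 fold at 2 h and 86 at 4 h. Tnip3 had values of 483, 30696 and 48642, or 63.5-fold (59.0 to 68.5) at 2 h and 101-fold (93.7 to 108) at 4 h. Its rank was 80 at 2 h and 77 at 4 h, and it was the one strongly induced gene of the 10 whose value went on rising after 2 h. Tnip1 had values of 857, 12320 and 9723, which is 14.4-fold (13.5 to 15.3) and 11.3-fold (10.7 to 12.01). Cyld had values of 1109, 882 and 1186, or 0.796-fold (0.712 to 0.887) and 1.07-fold (1.00 to 1.14). With equal library totals Cyld was 0.503-fold (0.450 to 0.561) at 2 h and 0.604-fold (0.567 to 0.644) at 4 h, so it stood below 0 h at both times under that scaling.

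**Figure D2:**
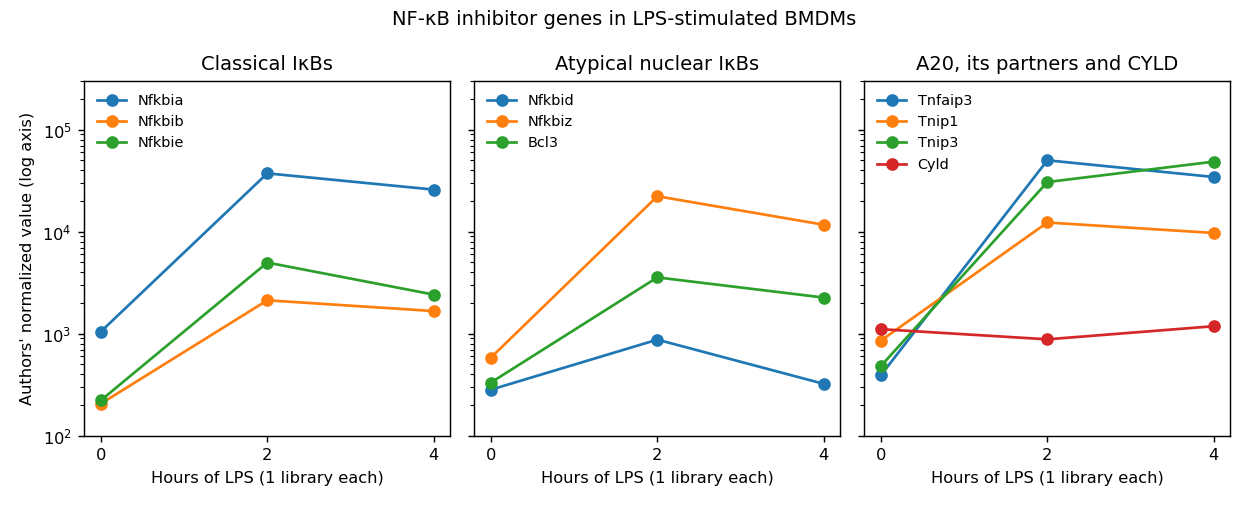
Authors' normalised value (log axis) of each gene at 0, 2 and 4 h of LPS, with 1 library per point, in panels for the classical IκBs, the atypical IκBs, and the A20 complex with CYLD. Tnfaip3 rises from 393 to 50159, Tnip3 is still rising at 4 h, and Cyld stays between 882 and 1186.

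Between 2 h and 4 h most of these genes declined while staying above 0 h. The value at 4 h was lower than at 2 h in 8 of the 9 genes that had risen at least 2-fold, Tnip3 being the exception, whereas 58.3% of all 3668 genes with such a rise were lower at 4 h. By the limit of 2-fold, 2 of the 10 were lower (Nfkbid and Nfkbie) and 0 higher, against 15.2% and 17.9% of all genes. Nfkbid was 0.369-fold (0.324 to 0.419) and Nfkbie 0.485-fold (0.461 to 0.511) of its 2 h value, and the interval of Nfkbie takes in the limit. Nfkbiz at 0.525-fold (0.513 to 0.538) stood just outside it. The remaining decliners ranged from 0.634-fold for Bcl3 to 0.789-fold for Tnip1. Tnip3 was 1.58-fold (1.56 to 1.61) and Cyld 1.34-fold (1.21 to 1.5) of the 2 h value. These directions were the same for all 10 genes with equal library totals and with TMM factors, but with equal library totals Nfkbiz was also at least 2-fold lower, at 0.470-fold.

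**Figure D3:**
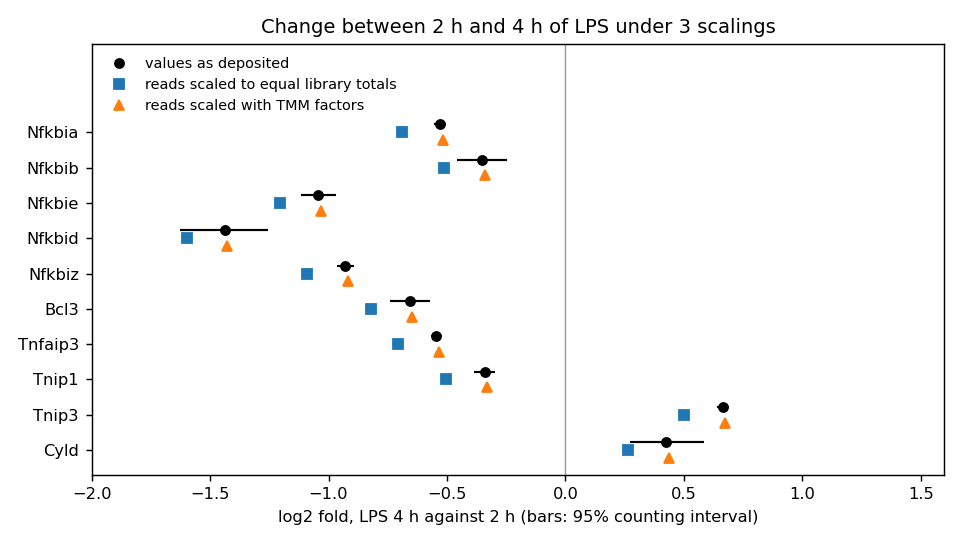
Log2 fold between 4 h and 2 h of LPS for each gene, from the deposited values (black, bars give the 95% counting interval) and from reads scaled to equal library totals (blue) or with TMM factors (orange). Tnip3 and Cyld lie to the right of 0 and the other 8 genes to the left under each of the 3 scalings.

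In absolute share, the 10 genes took 0.0551% of all reads in the unstimulated library (exact 95% interval 0.0539 to 0.0562), 1.04% after 2 h (1.03 to 1.05) and 0.779% after 4 h (0.776 to 0.782). Cyld had the most reads of the 10 at 0 h (1724), Tnfaip3 at 2 h (22970) and Tnip3 at 4 h (89513). To compare levels between genes, reads per kilobase of the principal transcript were scaled to the library total (RPKM). On that scale Nfkbia was the highest at every time, with 66.4 at 0 h, 1492 at 2 h and 924 at 4 h. Levels below are in RPKM. At 0 h it was followed by Tnip1 (28.7) and Bcl3 (17.9), and then Nfkbiz, Cyld, Nfkbid and Tnip3 stood between 12.8 and 14.2, where each gene's counting interval overlaps that of its neighbour. The last were Nfkbib (9.99), Nfkbie (9.12) and Tnfaip3 (8.86), and the intervals of these neighbours overlap as well. At 2 h Tnfaip3 was in the second place (715), ahead of Tnip3 (513), Nfkbiz (341) and Tnip1 (261). Nfkbie (129) and Bcl3 (122) then did not differ beyond their intervals, and Nfkbib (65.1), Nfkbid (27.1) and Cyld (7.0) closed the order. At 4 h Tnip3 (727) had passed Tnfaip3 (438), and Nfkbid (8.92) and Cyld (8.41) were last, with overlapping intervals. The order depends on the length used, most of all for Tnip3: over all its annotated exons it ranked 10, 5 and 3 at the successive times, and 7, 3 and 2 over the principal transcript. At 0 h Nfkbid ranked 4, Nfkbib 6, Cyld 7 and Tnfaip3 9 over all annotated exons, and at 4 h Tnfaip3 was still ahead of Tnip3 on that length.

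A ratio to an NF-κB subunit within a library shows how unequal the changes of these genes were, without any scaling between libraries. Rela, the transactivating subunit held by IκBα, had values of 749, 4610 and 2868. Relative to Rela, Tnfaip3 was 20.7 times its 0 h ratio at 2 h and 22.8 times at 4 h, and Tnip3 10.3 and 26.3 times. Nfkbia reached 5.78 and 6.43 times, Nfkbiz 6.20 and 5.23 times, and Nfkbie 3.64 and 2.84 times. Tnip1 (2.34 and 2.96), Nfkbib (1.68 and 2.11) and Bcl3 (1.74 and 1.78) gained less on Rela than Nfkbie at 2 h, and Tnip1 slightly more at 4 h. Nfkbid fell to 0.503 and 0.298 of its 0 h ratio and Cyld to 0.129 and 0.279. The ratio to Rela was chosen after the data were seen.

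The surroundings of these genes in the pathway are given from the lists used for description. Of 8 genes for NF-κB subunits and the IKK kinase, 5 were at least 2-fold higher at both times (median log2 fold 2.57 at 2 h and 1.94 at 4 h). The highest at 2 h were Nfkb2 (3.84) and Relb (3.39), and the lowest was the kinase gene Chuk (-0.24). At 4 h they were Nfkb2 (3.33) and Nfkb1 (3.05), and the lowest was Ikbkg (0.37), which codes for the IKK regulatory subunit NEMO. Of 16 partners and substrates of A20, CYLD and the linear ubiquitin ligase, 8 passed the 2-fold limit upward at 2 h and 7 at 4 h. Ripk2 had the highest log2 fold at 2 h (4.03), followed by Rnf31 (3.0), which codes for the catalytic subunit of the linear ubiquitin ligase, and Itch had the lowest (-0.60). At 4 h they were Ripk2 (3.71), the A20 adaptor gene Tax1bp1 (3.20) and, lowest, Otud7b (-0.66).

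Of 17 other negative regulators of TLR4 and NF-κB, 12 were at least 2-fold higher and 1 lower at 2 h, and 11 higher and 3 lower at 4 h. The cytokine signalling suppressors Socs3 (7.99) and Socs1 (7.80) had the highest log2 folds at 2 h, and Nlrc3 (-1.21) the lowest. At 4 h they were Socs3 (7.36) and Socs1 (6.41), with Sigirr lowest (-2.88, from 97 reads at 0 h and 14 reads at 4 h). All 14 NF-κB target cytokines and chemokines were at least 2-fold higher at both times, with a median of 7.63 at 2 h and of 7.56 at 4 h, or 7.32 at 4 h with Csf3 at its bound, and Tnfaip3 (6.99 at 2 h) lay below the median at 2 h. Il10 was the lowest of the 14 at 2 h (4.76), above Nfkbib, Nfkbie, Nfkbid, Bcl3, Tnip1 and Cyld. Csf3 had 0 reads at 0 h and 37 at 2 h, at least 41.9-fold higher against a floor of 3 reads per library. The highest at 2 h were Il1b (9.03) and Il1a (8.57, from 5 reads at 0 h). At 4 h they were Ccl5 (9.62) and Il1b (8.87), and Il10 was again the lowest (4.49). Il6, Il12b and Csf3 of the 14 are also among 6 genes known to need IκBζ. Of these 6, 5 were at least 2-fold higher at both times, and Csf2 had 0, 2 and 4 reads and is not read. Among them Il12b (8.53) and Il6 (7.34) were highest and Ebi3 (2.79) lowest at 2 h, and at 4 h Il6 (8.09) and Il12b (7.59) were highest and Ebi3 (3.47) lowest, beside Csf3, which was at least 108-fold higher against the floor. Between 2 h and 4 h Il12b was lower, as Nfkbiz was, and the other 4 of these 5 genes were higher.

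By the distance between their log2 folds at 2 h and 4 h, the genes most like Nfkbia were Lrrc63, Gadd45b and Gm38357, at distances of 0.04, 0.08 and 0.16. For Nfkbiz they were Nr4a3 (0.06), Gadd45b (0.24) and Sema4c (0.28). For Tnfaip3 they were Sele (0.18), Cxcl2 (0.26) and Abtb2 (0.35), where Sele had 0 reads at 0 h. Lrrc63 and Nr4a3 had normalised values of only 1.29 and 3.86 at 0 h, where 1 read had a value of 0.643. Lrrc63 had 100 reads in its highest library. The distances of Lrrc63, Nr4a3 and Sele thus rest on few or no reads at 0 h and depend on the pseudocount of 1. The distance was taken over 3 libraries and 10537 genes with at least 100 reads, and is a description.

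With AAV-Shisa3, the genes for IκBα and BCL3 were higher than with AAV-GFP, and none of the 10 genes fell past the threshold. By limma's trended test with Benjamini-Hochberg adjustment over 11218 genes and a threshold of 0.05, 2 of the 10 rose and 0 fell, against 2.23% and 4.1% of all genes. At an unadjusted p under 0.05 the counts were 5 and 0, against 8.21% and 19.8% of all genes. In 7 genes each AAV-Shisa3 sample exceeded each AAV-GFP sample, and in 1 gene each was lower, against 18.2% and 41.2% of all genes. The median log2 fold change of the 10 genes was 0.24, against -0.10 over all genes. With each sample centred on its median, 4 of the 10 rose, and the calls over all genes went from 250 higher and 460 lower to 410 higher and 230 lower. Without the trend, or with no filter beyond genes at 0 in every sample, 0 of the 10 passed the threshold. The samples carry replicate numbers, but nothing says that they came from separate cultures or animals, so the p-values may measure a technical spread. An exact permutation test of 2 against 2 samples cannot give a two-sided p below 0.333.

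Among the classical IκBs, Nfkbia was at 561.57 and 562.80 TPM with AAV-GFP and at 729.28 and 711.53 TPM with AAV-Shisa3. The groups did not overlap, and the means were 562 ± 0.87 and 720.4 ± 12.6 TPM (SD, n = 2 samples each), a log2 fold change of 0.36 ± 0.07 (SE, limma adjusted p = 0.0382). Nfkbib was at 95.23 and 100.66 TPM with AAV-GFP and at 112.38 and 104.80 TPM with AAV-Shisa3, with a log2 fold change of 0.15 (95% interval -0.05 to 0.34) that did not pass the test (limma adjusted p = 0.285). Nfkbie was at 17.14 and 19.63 TPM against 16.39 and 21.74 TPM, where the groups overlapped. Its log2 fold change was 0.04, with an interval of -0.35 to 0.43.

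Among the atypical IκBs, Bcl3 was at 130.15 and 151.30 TPM with AAV-GFP and at 228.15 and 202.21 TPM with AAV-Shisa3. The means were 141 ± 15.0 and 215 ± 18.3 TPM (SD, n = 2 samples each), 1.53-fold apart, with a log2 fold change of 0.61 ± 0.11 (SE, limma adjusted p = 0.0343). Nfkbid had a change of like size from a far lower level, with 5.93 and 8.01 TPM against 11.12 and 11.27 TPM, but did not pass the test (log2 fold change 0.63 ± 0.16, SE, limma adjusted p = 0.0747). Nfkbid passed after centring on sample medians (limma adjusted p = 0.0467). Nfkbiz was at 181.27 and 210.05 TPM against 219.79 and 227.65 TPM. Its log2 fold change of 0.20 (interval -0.03 to 0.42) did not pass the test (limma adjusted p = 0.228), and was 0.09 without AAV-GFP replicate 1 and 0.30 without AAV-GFP replicate 2.

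Of Tnfaip3, Tnip1, Tnip3 and Cyld no gene passed limma's test, and 2 had an unadjusted p under 0.05 (Tnfaip3 and Tnip3). Tnfaip3 was at 78.15 and 89.94 TPM with AAV-GFP and at 107.40 and 116.67 TPM with AAV-Shisa3, with groups that did not overlap and a log2 fold change of 0.41 ± 0.10 (SE, limma adjusted p = 0.0671). It passed with each sample centred on its median (limma adjusted p = 0.0362) and with a minimum of 1 TPM in every sample (limma adjusted p = 0.0498). Tnip3 was at 235.37 and 244.21 TPM against 306.71 and 277.30 TPM, with a log2 fold change of 0.28 ± 0.08 (SE, limma adjusted p = 0.0937). The A20 partner gene Tnip1 was at 230.24 and 215.88 TPM against 211.26 and 235.02 TPM, and its log2 fold change of -0.00 had an interval of -0.21 to 0.21. Cyld was the gene whose AAV-Shisa3 samples lay below the AAV-GFP samples, at 8.61 and 8.06 TPM against 9.77 and 11.06 TPM. Its log2 fold change of -0.29 (interval -0.60 to 0.02) did not pass the test (limma adjusted p = 0.198).

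**Figure D4:**
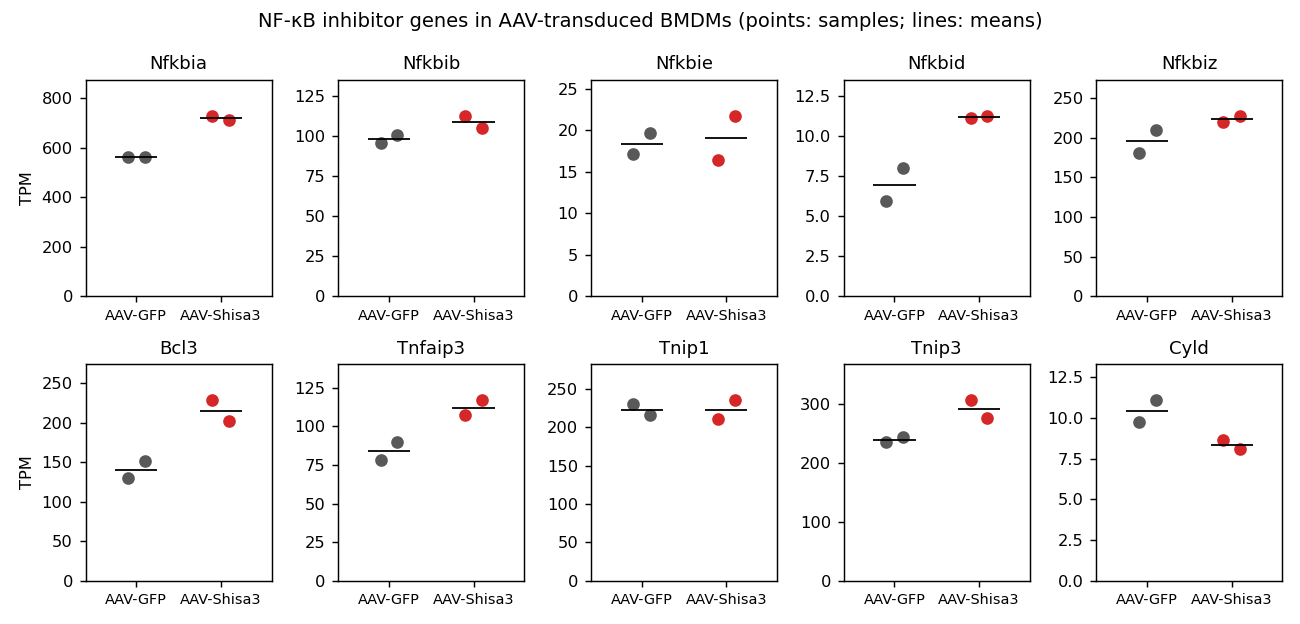
TPM of each gene in the AAV-GFP (grey) and AAV-Shisa3 (red) samples, with 1 point per sample, lines at the group means and each vertical axis starting at 0. The AAV-Shisa3 points of Nfkbia (729.28 and 711.53) and Bcl3 (228.15 and 202.21) lie above both AAV-GFP points, and the points of Tnip1 and Nfkbie overlap.

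**Figure D5:**
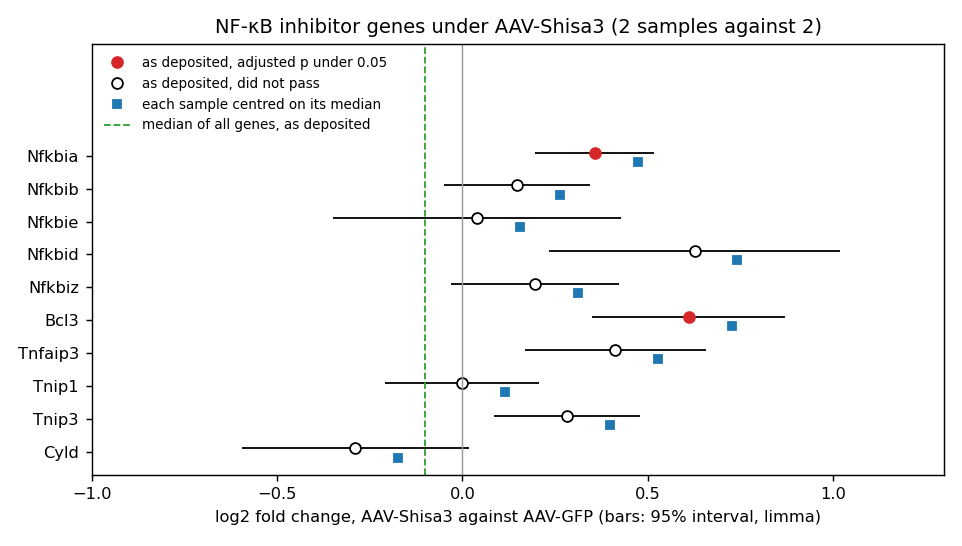
Log2 fold change of each gene with AAV-Shisa3 against AAV-GFP, with 95% limma intervals, filled red where the adjusted p is under 0.05. Blue squares give the value with each sample centred on its median, and the dashed line is the median of all genes (-0.10). Nfkbia and Bcl3 are the filled points.

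These calls rest on few samples. Leaving out any 1 of the 4 samples left 0 of the 10 genes past the threshold, with log2 fold changes of 0.34 to 0.37 for Nfkbia and 0.50 to 0.72 for Bcl3, and a test without the trend also left 0.

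The TPM scale is per length, so levels can be compared between genes in the AAV samples. By the mean of the AAV-GFP samples the order was Nfkbia (562 TPM), Tnip3 (240 TPM), Tnip1 (223 TPM), Nfkbiz (196 TPM), Bcl3 (141 TPM), Nfkbib (97.9 TPM), Tnfaip3 (84.0 TPM), Nfkbie (18.4 TPM), Cyld (10.4 TPM) and Nfkbid (6.97 TPM). The 2 samples of neighbouring genes did not overlap in this order. With AAV-Shisa3 Nfkbia (720.4 TPM) and Tnip3 (292 TPM) kept the top places, while Nfkbiz, Tnip1 and Bcl3 stood between 215 and 224 TPM with overlapping samples. Tnfaip3 (112 TPM) then stood above Nfkbib (109 TPM), with samples that overlapped. Nfkbid (11.2 TPM) had moved above Cyld (8.34 TPM), and the samples of these genes did not overlap.

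Of all 11218 genes tested, 2.23% rose and 4.1% fell with AAV-Shisa3 by limma's test, and 8.21% and 19.8% at an unadjusted p under 0.05. Beside these inhibitors, 2 of the 8 genes for subunits and the IKK kinase rose with AAV-Shisa3 and 0 fell (3 and 2 at an unadjusted p under 0.05 by limma). They were Nfkb1, which codes for the p50 precursor (log2 fold change 0.54, limma adjusted p = 0.0418), and Ikbkg (0.52, limma adjusted p = 0.0295). Rela was at 95.98 and 98.35 TPM against 78.14 and 86.45 TPM, with a log2 fold change of -0.24 that did not pass the test (limma adjusted p = 0.140). Of the 16 partners and substrates 1 fell, the gene of the kinase RIPK1, which A20 acts on (Ripk1, log2 fold change -0.40, limma adjusted p = 0.0466), and 0 rose (3 and 3 at an unadjusted p under 0.05). The falls in this list were near the shares of all genes that fell. Of the 16 tested among the 17 other negative regulators, 5 rose and 0 fell (7 and 0 at an unadjusted p under 0.05). The largest changes among those past the adjusted threshold were Nr4a1 (1.04), Socs1 (0.83), Socs3 (0.82) and the mRNA decay factor gene Zfp36 (0.68).

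Among the target cytokines and chemokines, of 14 genes 6 rose and 0 fell, against 2.23% and 4.1% of all genes. At an unadjusted p under 0.05 by limma the counts were 12 and 0, against 8.21% and 19.8% of all genes. The median log2 fold change of the 14 was 0.87, and the largest changes among those past the adjusted threshold were Cxcl10 (2.08), Il1b (1.65), Ccl3 (0.92) and Ccl4 (0.88). Il6, Il12b and Csf3 of the 14 are also among the 5 genes tested that need IκBζ. Of these 5, 0 passed limma's test at the adjusted threshold and 2 had an unadjusted p under 0.05 (Il6 and Il12b), with a median log2 fold change of 0.48. The difference between these medians and that of the 10 inhibitors was not tested. The calls in these lists rest on few samples too: without the trend, or with no filter on low values, 0 genes of any of the 5 lists passed limma's test. Leaving out 1 sample left Cxcl10 and Ccl4 as calls without AAV-Shisa3 replicate 2, Cxcl10 without AAV-Shisa3 replicate 1, and 0 without either AAV-GFP sample. With each sample centred on its median Ripk1 no longer passed, while the rises went from 6 to 8 among the target cytokines and chemokines (adding Il1a and Il6), from 5 to 6 among the other negative regulators (adding Zc3h12a) and from 0 to 1 among the genes that need IκBζ (Il6).

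The LPS libraries held between 7263258 reads (2 h) and 32659392 reads (4 h). The lowest read count behind a value of the 10 genes was 321 reads (Nfkbib at 0 h). The depth of the AAV samples is unknown. Shisa3 itself had 1, 164 and 3174 reads at 0, 2 and 4 h. In the AAV samples it was at 7.88 and 10.85 TPM with AAV-GFP and at 12.31 and 17.81 TPM with AAV-Shisa3, and this rise did not pass the test (log2 fold change 0.63, limma adjusted p = 0.138). The 8 macrophage markers were detected in every library, with summed levels that were lower at each later LPS time, at 32750, 22709 and 18375 RPM (reads scaled to the library total) at 0, 2 and 4 h. Their sums were 34736 to 38318 TPM in the AAV samples, where 1 of 8 rose with AAV-Shisa3, against 2.23% of all genes. Their part in the changes of the 10 genes was not tested. All 3 T cell markers were at 0 at 0 h, at 2 h and in each AAV sample, and the B cell and dendritic cell markers summed to under 6 RPM and under 1 TPM. The 9 neutrophil markers summed to 397 to 629 RPM in the LPS libraries. In the AAV samples they summed to 593 and 565 TPM with AAV-GFP and to 1092 and 683 TPM with AAV-Shisa3, where 2 of 8 tested rose, against 2.23% of all genes. The part of these markers in the changes of the 10 genes was not tested. The 5 fibroblast markers summed to 45.7, 45.0 and 30.5 RPM at 0, 2 and 4 h and to 9.39 to 16.3 TPM in the AAV samples. In such bulk samples fewer cells of a type and less RNA per cell cannot be told apart.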

How the data were processed

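Values for 3 LPS libraries and 4 AAV samples were used, and 0 other columns of per-sample values were left out. For the LPS table the authors deposited a signal, a read count divided by a factor per library; 100% of values were whole multiples of 1 read (tolerance 0.01), so reads were recovered. For the AAV table the authors deposited values read here as TPM, a unit inferred from the column sums. The submitters' processing notes name mm9; the aligner and the counting program are not given in the sources used here. Gene models came from GENCODE M21 (GRCm38). LPS folds of the members are plain ratios of values; log2 folds used log2(value + 1) for genes whose mean value reached 1, and are too small where values are low. The AAV groups were compared with limma 3.58.1 (trend, Benjamini-Hochberg) in R 4.3.3, after a test on simulated data. TMM factors came from edgeR 4.0.16; other computations used Python 3.11.15 with pandas 2.3.3 and scipy 1.17.1. The members and gene lists were chosen with earlier results of these data known. Named from each list are at most 4 genes passing the AAV test, and the 2 highest and 1 lowest at each LPS time. Alternatives were scaling, filter, pseudocount, trend, replicate block and leaving out samples. Intervals were exact binomial or conditional at 95% and cover counting error only.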

Additional observations from a re-analysis of the deposited data

How the results depend on the processing

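For LPS, the median log2 fold of the 10 genes was 3.50 at 2 h, 2.65 at 4 h and -0.70 between 2 h and 4 h with equal library totals. With each library centred on its median it was 4.48 at 2 h and 3.84 at 4 h, and 1 gene was then at least 2-fold lower at 4 h than at 2 h. For AAV-Shisa3, 0 of the 10 genes rose by limma without the trend (Nfkbia 0.36, adjusted p = 0.107, and Bcl3 0.61, adjusted p = 0.0822) and 0 with no filter beyond genes at 0 in every sample, with the same log2 fold changes and adjusted p of 0.130 and 0.156. At an unadjusted p under 0.05, 5 of the 10 were higher in each of these fits, and 1 (Cyld) was lower without the trend and 0 with no filter. Centring gave 4 rises, adding Nfkbid (0.74) and Tnfaip3 (0.53), and turned Tnip1 to 0.11. It also moved Nfkbib to 0.26, Nfkbie to 0.16, Nfkbiz to 0.31 and Cyld to -0.17, and the count higher at an unadjusted p under 0.05 from 5 to 7. A minimum of 1 TPM in every sample added Tnfaip3 (0.41, limma adjusted p = 0.0498). Leaving out each sample in turn gave 0 rises each time, with Nfkbia at 0.34 to 0.37 (limma adjusted p 0.124 to 0.210), Bcl3 at 0.50 to 0.72 (limma adjusted p 0.104 to 0.176), Nfkbie at -0.15 to 0.23, Tnip1 at -0.077 to 0.076, Nfkbiz at 0.09 to 0.30 and Nfkbib at 0.097 to 0.20; the group of 1 sample is then assumed to vary like the other. Over all genes, the calls were 250 higher and 460 lower as reported, 1 and 4 without the trend, 0 and 0 with no filter, and 0 to 27 and 0 to 7 with a sample left out. With the replicate block 4 of the 10 genes rose, adding Nfkbid (0.63, limma adjusted p = 0.0478) and Tnfaip3 (0.41, limma adjusted p = 0.0308), and the calls over all genes were 424 higher and 851 lower. With this block the target cytokines and chemokines went from 6 to 12 rises of 14, and the genes that need IκBζ from 0 to 2 of 5. Those 2 (Il6 and Csf3) are also counted among the 12. Ripk2 also rose among the partners. The samples share only a number: the differences between replicates 1 and 2 in the AAV groups had a correlation of 0.19 over the genes tested. The LPS times rest on 1 library each, so no biological spread is known for them, and the AAV table gives no depth.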
